A study of Mus musculus with 6 samples.

Results

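The 10 genes examined here are Fcgr1, its relatives Fcgr2b and Fcgr3, their signalling partner Fcer1g, the complement genes C1qa, C1qb and C1qc, and the microglial genes Tyrobp, Csf1r and Cx3cr1. They were chosen from 37620 genes counted in the ribosome-bound RNA of the mouse dentate gyrus, because Fcgr1 was higher in Klf9 f/f samples and the others are its kin or share its cell type. All 10 were among the 15056 genes tested, which had a CPM (count scaled to library size) above 1 in at least 1 sample. The genotype difference of Fcgr1 therefore chose the list and is described here with no test.

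The samples came from Gli1CreERT2:Rpl22HA f/+ mice that were Klf9 +/+ (3 samples) or Klf9 f/f (3 samples), and each pooled 6 dentate gyri of 3 mice. Mice of both genotypes were 2 to 3 months old and received 3 tamoxifen injections, one every 12 hr, with tissue taken 4 days after the last. In both genotypes, Cre driven by Gli1 switches on an HA-tagged ribosomal protein in radial glia-like cells and, the study states, in astrocytes. In Klf9 f/f mice Cre also deletes Klf9, a Krüppel-like transcription factor. Tagged ribosomes were pulled down with an anti-HA antibody, so RNA of untagged cells can be present as carry-over, and in bulk samples fewer cells of a type and less RNA per cell cannot be told apart. The library names form series 22, with replicates 1 and 2 of each genotype, and series 32, with replicate 3 of each. Replicate numbers are running numbers given here, since the labels carry none, and pair no samples. What the series stand for is not given in the sources used here, and where nothing says otherwise the spread between samples may be partly technical.

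Gene counts ranged from 21594714 to 66343759 per sample, and both samples of series 32 were the shallowest. For Klf9 itself, replicates 1, 2 and 3 held 201, 204 and 139 CPM with the intact gene and 114, 121 and 120 CPM in Klf9 f/f. Radial glia markers summed to between 2288 and 3504 CPM in each sample, and the 20 tested microglia markers outside the 10 genes summed to between 191 and 264 CPM. The 10 markers of T cells, B cells, neutrophils and monocytes had at most 41 counts in any sample, and 0 of them reached the level tested.

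Fc receptors bind the constant part of antibodies. FcγRI, encoded by Fcgr1, binds monomeric IgG with high affinity, while the receptors encoded by Fcgr2b and Fcgr3 bind immune complexes, the first as an inhibitory receptor and the other as an activating one. FcγRI and FcγRIII signal through the common γ chain encoded by Fcer1g. C1q starts the classical complement pathway and is made in the brain mainly by microglia. Tyrobp encodes the adaptor DAP12, Csf1r the receptor for the survival factor CSF1, and Cx3cr1 the fractalkine receptor.

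The reads were 50 bases long, so receptors of alike sequence could share reads. Fcgr2b and Fcgr3 shared 166 windows of 50 bases, or 10.1% and 10.2% of their own transcript windows, and their longest identical coding run was 129 bases. The stretch around that run is shown because a read inside the run matches both genes. Reads that aligned to several places were counted under no gene, so such reads would be missing from both. It spans coding bases 263 to 421 of Fcgr2b and 248 to 406 of Fcgr3 (159 bases in mm9, from the GENCODE M1 transcripts), and the capitals mark its 2 differences.
Fcgr2b: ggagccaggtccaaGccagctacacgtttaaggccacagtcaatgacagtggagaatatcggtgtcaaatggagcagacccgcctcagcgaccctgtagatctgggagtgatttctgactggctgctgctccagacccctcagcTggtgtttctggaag
Fcgr3: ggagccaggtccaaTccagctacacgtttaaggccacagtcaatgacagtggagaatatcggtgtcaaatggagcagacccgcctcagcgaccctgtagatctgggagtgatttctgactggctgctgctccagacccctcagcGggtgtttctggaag

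Fcgr1 shared 0 of its 2751 windows with any other protein-coding gene, and its longest coding run in common with Fcgr2b or Fcgr3 was 9 bases. No 50-base read of an annotated Fcgr1 transcript thus matches a transcript of another protein-coding gene exactly. Pseudogenes, non-coding genes and the rest of the genome were not searched. Csf1r overlaps Hmgxb3 on the opposite strand over 871 of its 5229 exon bases, and the counting ignored strand. The other genes of the list share no exon base with an annotated neighbour.

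The 250 bases before the start site are shown for Fcgr1, for its relative Fcgr3 and for C1qc, from RefSeq on GRCm38.p6, a build other than the mm9 of the counts. All 3 lie on the minus strand, at chr3:96293970-96294219 for Fcgr1, chr1:171059404-171059653 for Fcgr3 and chr4:136892915-136893164 for C1qc. Capitals mark matches, on either strand, to TTCNNNGAA, the gamma-activated site motif, and to CACCC, the box that Krüppel-like factors bind.
Fcgr1: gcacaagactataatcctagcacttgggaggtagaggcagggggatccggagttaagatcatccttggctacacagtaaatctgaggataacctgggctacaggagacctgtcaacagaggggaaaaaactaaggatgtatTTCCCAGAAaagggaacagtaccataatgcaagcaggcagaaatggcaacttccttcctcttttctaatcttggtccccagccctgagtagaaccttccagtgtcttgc
Fcgr3: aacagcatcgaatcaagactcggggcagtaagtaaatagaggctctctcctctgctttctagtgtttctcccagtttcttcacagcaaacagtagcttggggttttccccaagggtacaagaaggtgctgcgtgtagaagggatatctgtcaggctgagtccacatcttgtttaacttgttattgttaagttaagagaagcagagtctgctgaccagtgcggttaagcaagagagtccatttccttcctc
C1qc: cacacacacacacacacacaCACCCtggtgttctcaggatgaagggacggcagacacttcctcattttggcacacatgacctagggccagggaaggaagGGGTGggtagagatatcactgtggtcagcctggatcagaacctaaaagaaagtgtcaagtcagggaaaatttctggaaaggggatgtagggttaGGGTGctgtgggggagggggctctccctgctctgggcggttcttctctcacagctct

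Entries were used for 7 of the 10 genes, since C1qa and Tyrobp had none and Csf1r was not searched. TTCNNNGAA occurred in 1 of them, Fcgr1, starting 109 bases upstream, against 7.02% of 32851 promoters of the same length. CACCC occurred in 5 of the 7 but not in Fcgr1 or Fcgr3, against 52.0% of all promoters, and C1qc held 3 matches. A further sequence searched on either strand, GAGGAAG, is not marked above. It occurred in 3 of the 7, Fcgr1, Fcgr3 and C1qc, against 10.6% of all promoters. These matches are letters in a window and say nothing of binding.

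Fcgr1 (ENSMUSG00000015947, mm9 chromosome 3, 96086832 to 96098179, minus strand) had 23, 28 and 198 counts in Klf9 +/+ replicates 1, 2 and 3 and 344, 728 and 493 in Klf9 f/f. These were 0.465, 0.487 and 6.47 CPM in Klf9 +/+ and 5.25, 14.6 and 21.95 CPM in Klf9 f/f. Both series 22 samples of Klf9 +/+ were lowest, and within each series every Klf9 f/f sample lay above Klf9 +/+, but across series the 6.47 CPM of Klf9 +/+ replicate 3 exceeded the 5.25 CPM of Klf9 f/f replicate 1. The fitted log2 fold change was 3.40, a 10.6-fold difference and the 4th highest of 15056. It was 4.09 on the log2 scale (17.0-fold) within series 22 and 1.76 (3.38-fold) within series 32, where each genotype has 1 sample.

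**Figure D1:**
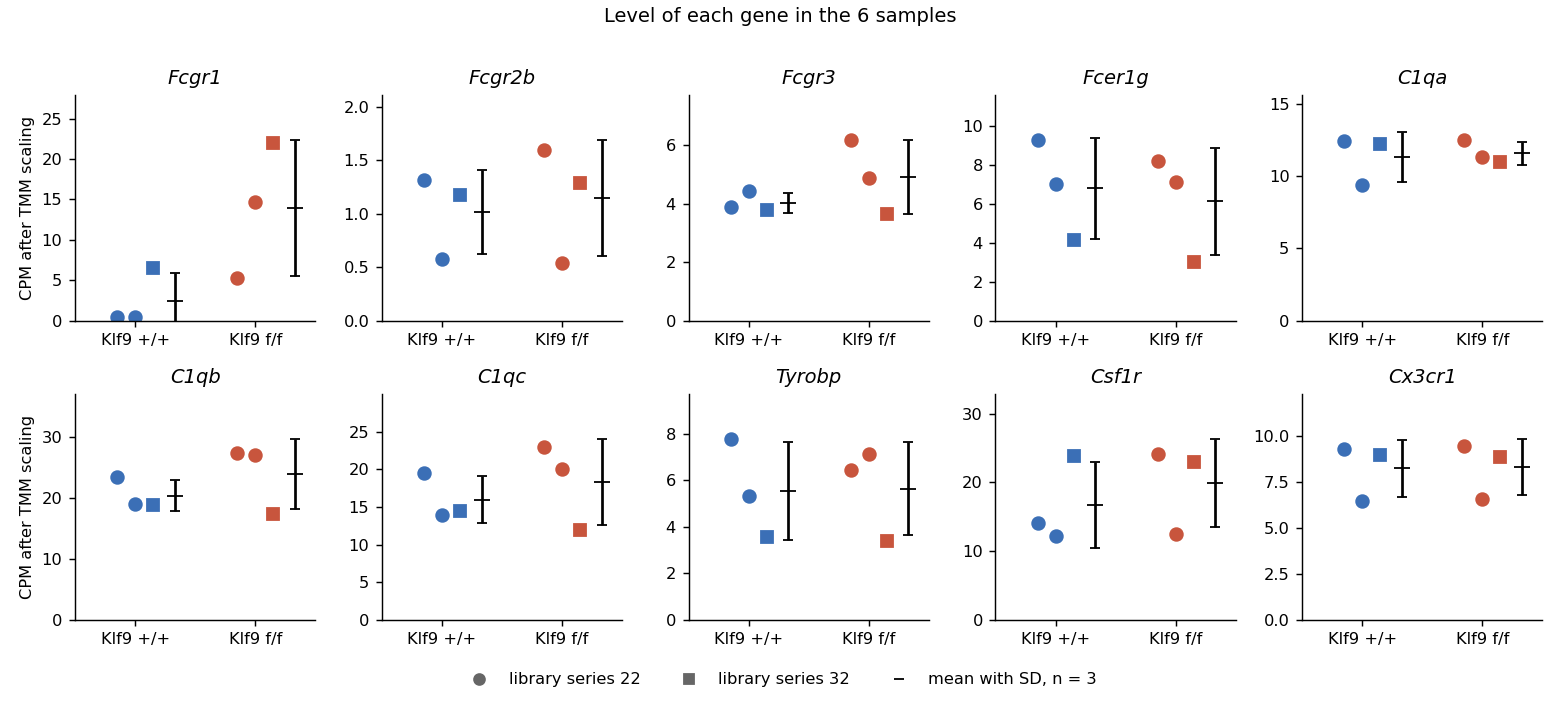
Level of each gene in CPM after TMM scaling (vertical axes, each from 0) in the 6 samples, by genotype, with circles for library series 22, squares for series 32 and black bars for the mean and SD of 3 samples (the lower bar of Fcgr1 in Klf9 +/+ is clipped at 0). Fcgr1 ran from 0.465 to 21.95 CPM, with Klf9 +/+ replicate 3 above Klf9 f/f replicate 1, and the samples of the other 9 genes also overlap between genotypes.

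None of the other 9 genes differed between genotypes by the amount described for Fcgr1. Of these, 8 were higher and 1 lower in Klf9 f/f. Their median log2 fold change was 0.16 beside 0.00084 over all genes, and 0 were called at 1.2-fold with an unadjusted p under 0.05, where 1.82% of all genes were called higher, 2.5% lower and 4.32% in either direction. None of the 9 lay above or below Klf9 +/+ in every sample within each series, beside 7.78% of all genes above and 5.53% below. All 9 had an adjusted p of 1.00 (edgeR quasi-likelihood, Benjamini-Hochberg over all genes), and the smallest unadjusted p was 0.231. Over all genes 0 passed an adjusted p of 0.05 in that test (0% called). In it 650 had an unadjusted p under 0.05, fewer than the 753 expected if no gene differed. By the likelihood-ratio test 58 passed an adjusted p of 0.05, and by DESeq2 39.

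Among the receptors, Fcgr3 had 3.88, 4.42 and 3.79 CPM in Klf9 +/+ and 6.17, 4.89 and 3.65 CPM in Klf9 f/f. The 2 series 22 samples of Klf9 f/f were highest and that of series 32 lowest, so the genotypes overlapped. Its log2 fold change was 0.27 (95% interval -0.27 to 0.81). Fcgr2b had 1.31, 0.574 and 1.18 CPM in Klf9 +/+ and 1.60, 0.543 and 1.29 CPM in Klf9 f/f. Replicate 2 was the lowest of each genotype, at 33 and 27 counts. With 295 counts in all, its log2 fold change of 0.18 had the widest interval of the 9, -0.95 to 1.31.

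Fcer1g encodes the chain through which FcγRI signals. Fcer1g had 9.26, 6.99 and 4.12 CPM in Klf9 +/+ and 8.21, 7.14 and 3.03 CPM in Klf9 f/f. The lowest sample of each genotype was that of series 32, where Fcgr1 was highest. Its log2 fold change was -0.19 (95% interval -0.69 to 0.31). Tyrobp, the other adaptor, had 7.76, 5.30 and 3.56 CPM in Klf9 +/+ and 6.44, 7.12 and 3.38 CPM in Klf9 f/f. It too was lowest in series 32, and its log2 fold change was 0.015 (95% interval -0.51 to 0.54).

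The C1q genes lie side by side on chromosome 4. C1qa had 12.4, 9.37 and 12.3 CPM in Klf9 +/+ and 12.5, 11.3 and 11.0 CPM in Klf9 f/f. C1qb had 23.4, 19.0 and 18.8 CPM in Klf9 +/+ and 27.4, 27.1 and 17.4 CPM in Klf9 f/f. C1qc had 19.5, 13.9 and 14.4 CPM in Klf9 +/+ and 22.9, 20.03 and 11.9 CPM in Klf9 f/f. For C1qb and C1qc both Klf9 f/f samples of series 22 stood above Klf9 +/+ of that series, and the series 32 sample of Klf9 f/f was the lowest of all 6. The log2 fold changes were 0.034 for C1qa (95% interval -0.39 to 0.45), 0.21 for C1qb (-0.16 to 0.58) and 0.16 for C1qc (-0.30 to 0.61).

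Csf1r had 14.1, 12.3 and 23.9 CPM in Klf9 +/+ and 24.2, 12.5 and 22.9 CPM in Klf9 f/f. Each genotype held samples near 12 and near 23 CPM, and its log2 fold change of 0.30 (95% interval -0.25 to 0.86) was the highest of the 9. Cx3cr1 had 9.30, 6.47 and 8.95 CPM in Klf9 +/+ and 9.48, 6.60 and 8.86 CPM in Klf9 f/f. Its values nearly repeated between genotypes, with a log2 fold change of 0.015 (95% interval -0.50 to 0.53). The upper bounds of all 9 intervals were at most 1.31.

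**Figure D2:**
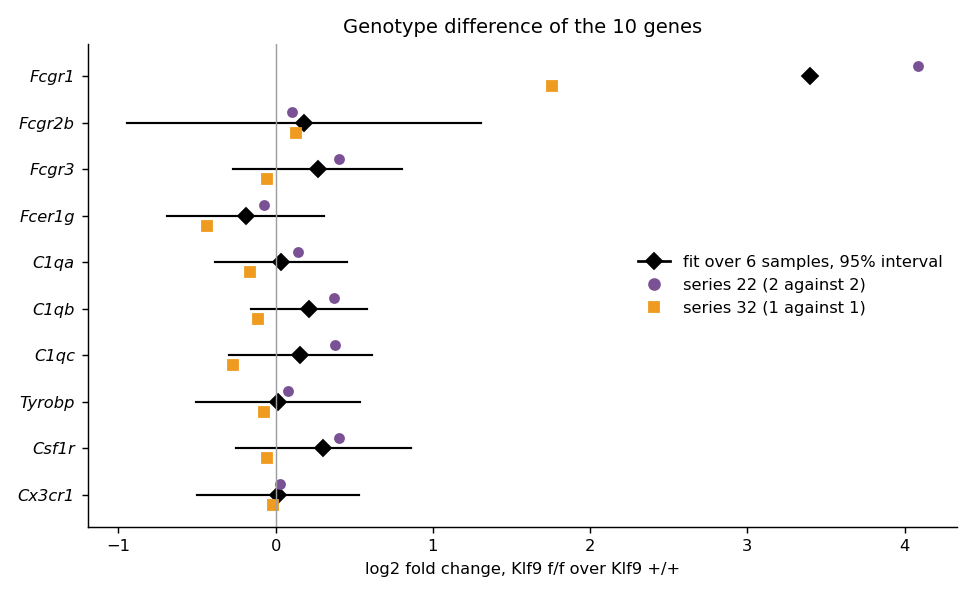
Log2 fold change of Klf9 f/f over Klf9 +/+ (horizontal axis) for the 10 genes, with black diamonds for the fit over 6 samples and lines for its 95% interval (none for Fcgr1, which was not tested), circles for series 22 and squares for series 32. Fcgr1 stood at 3.40 and the other 9 between -0.19 and 0.30.

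Within series 22, 8 of the 9 genes were higher in Klf9 f/f and 1 lower, with a median log2 difference of 0.14. Within series 32, with 1 sample per genotype, 1 was higher (Fcgr2b) and 8 lower, with a median of -0.073. The interaction of genotype and series had an adjusted p of 1.00 for each of the 9 (edgeR, Benjamini-Hochberg), in a fit with 2 residual degrees of freedom that called 0 genes (0%), with 231 at an unadjusted p under 0.05 and 13 adjusted calls by the likelihood-ratio test. Summed over the 9 genes, the level was 101, 78.3 and 91.0 CPM in Klf9 +/+ and 119, 97.3 and 83.4 CPM in Klf9 f/f, so the genotypes overlapped.

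The difference between series, which did not enter the choice of genes, was larger for some of them. In series 32 against 22, 3 of the 10 had an adjusted p under 0.05, a share close to the 29.5% of all genes (12.9% higher and 16.6% lower in series 32). Fcgr1 was higher in series 32 by 2.47 on the log2 scale (SE 0.57, adjusted p = 0.0137, edgeR's quasi-likelihood test). Fcer1g was at -1.15 (SE 0.25, adjusted p = 0.0107) and Tyrobp at -0.94 (SE 0.26, adjusted p = 0.0259) in the same edgeR test. Without Klf9 +/+ replicate 3, 0 of the 10 passed, and without Klf9 f/f replicate 3, 1 passed.

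Per kilobase of exon and averaged over all 6 samples of both genotypes, C1qb was the most abundant at 20.4 ± 4.05 CPM per kb (SD, n = 6), followed by C1qa at 11.0 ± 1.16, Tyrobp at 9.92 ± 3.25, C1qc at 8.87 ± 2.22 and Fcer1g at 8.07 ± 3.01. The order among these last 4 lay within their spread. Csf1r (3.50 ± 1.13), Fcgr1 (3.14 ± 3.25), Fcgr3 (2.56 ± 0.547) and Cx3cr1 (2.22 ± 0.367) followed, also within their spread, and Fcgr2b had the lowest mean at 0.282 ± 0.112 CPM per kb. The place of Fcgr1 holds for this mean alone. It was at 0.178 and 0.186 CPM per kb in Klf9 +/+ replicates 1 and 2, where Fcgr2b was at 0.341 and 0.149, and at 5.60 and 8.40 CPM per kb in Klf9 f/f replicates 2 and 3.

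Beyond the 10 genes, no tested gene of the Fc receptor, complement, interferon or microglia lists had a log2 fold change above 0.66. Of 10 further Fc receptor and Fc receptor-like genes, 3 were tested, and 0 were called. The 3 were Fcrls, an Fc receptor-like gene, at a log2 fold change of 0.37, Trim21, a cytosolic antibody receptor, at 0.37 and Fcgrt, the neonatal Fc receptor, at -0.0074. Fcgr4 had 11 counts in all 6 samples together. Of 12 genes of Fc receptor signalling, 8 were tested and 0 called, with 7 higher and a median of 0.10. Among 18 further complement genes, 15 were tested, with 5 higher, 10 lower and a median of -0.11. The 1 called (beside 1.82% of all genes called higher) was Clu, encoding the complement inhibitor clusterin, which is abundant in astrocytes, at 0.41, and C4b at 0.59 and Cd55 at -0.70 were not called. Of the 18 interferon-inducible genes, all tested, 0 were called, with 12 higher, 6 lower and a median of 0.047. They ran from -0.91 for Cxcl10 to 0.66 for Gbp6, with Irf1 at 0.022, Gbp2 at 0.28 and Ifitm3 at -0.51.

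Of 22 further microglia markers, 20 were tested and 0 called, with 11 higher, 9 lower and a median of 0.078. P2ry12 was at 0.10, Tmem119 at -0.29, Trem2 at 0.17 and Csf3r at 0.63. Of the 20 tested, 1 (Csf3r) lay above Klf9 +/+ in every sample within each series, beside 7.78% of all genes. Their sum ranged from 213 to 255 CPM in Klf9 +/+ and from 191 to 264 CPM in Klf9 f/f. Markers of border macrophages were lower in Klf9 f/f in 7 of 7 tested, with a median of -0.99, and 2 were called lower (beside 2.5% of all genes), Pf4 at -1.72 and F13a1 at -1.30. Their sum was 10.5, 5.30 and 22.7 CPM in Klf9 +/+ and 7.60, 3.60 and 7.17 CPM in Klf9 f/f. Astrocyte markers were higher in 9 of 9 (4 called), endothelial and mural markers lower in 7 of 7 (3 called) and choroid plexus markers lower in 7 of 7 (7 called), beside 1.82% of all genes called higher and 2.5% lower. Other lists were mixed. Radial glia markers were higher in 6 of 8 (0 called), neuron markers in 2 of 6 (0 called) and oligodendrocyte markers in 3 of 6 (1 called higher). The part of border macrophages and of these other cell types in the values of the 10 genes was not tested.

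**Figure D3:**
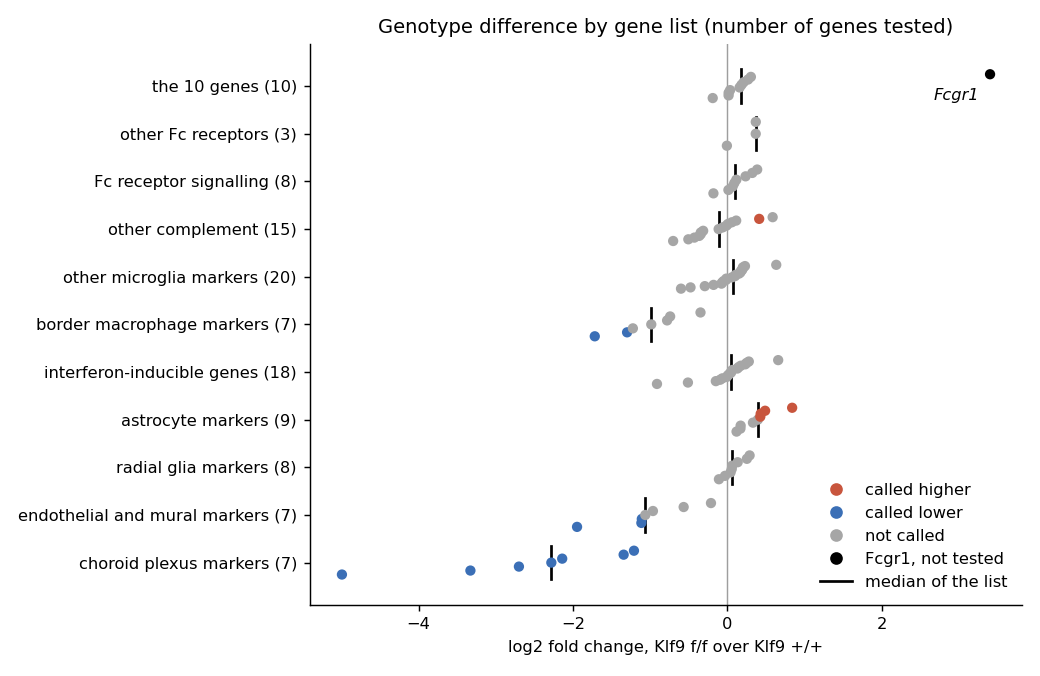
Log2 fold change of Klf9 f/f over Klf9 +/+ (horizontal axis) of each gene tested, by list, in red where called higher, blue where called lower and grey where not called, with black lines for list medians. Fcgr1, in black, stands at 3.40 outside every Fc receptor, complement, microglia and interferon list. The neuron and oligodendrocyte lists are not drawn.

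The genes whose profile over the 6 samples was nearest to Fcgr1 were sought by the root mean square distance of log2 CPM centred on each gene's mean. They were Tpm3-rs7 (distance 0.580), Hist1h2al (0.6005), Hist2h2bb (0.611), Selenbp2 (0.798) and Plbd1 (1.00), with log2 fold changes of 2.74, 4.18, 2.43, 2.59 and 2.04. Within series 22 the log2 differences were 3.80, 5.41, 3.14, 3.20 and 3.44. Within series 32, with 1 sample per genotype, they were 0.35, 1.81, 0.70, 0.86 and -0.85, so Plbd1 was lower in Klf9 f/f there. Both Klf9 +/+ samples of series 22 were the lowest for each of the 5. Being chosen for this likeness, they get no test. Tpm3-rs7 and the histone genes belong to families of alike sequence, whose counts are uncertain. The other 9 genes ranked from 1349 (Csf1r) to 14256 (Fcer1g) of 15055 in distance from Fcgr1. This distance is not scaled to the size of a gene's changes, so a gene that varies little lies away from Fcgr1 whatever its shape. The ranks therefore say little of likeness in shape.

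**Figure D4:**
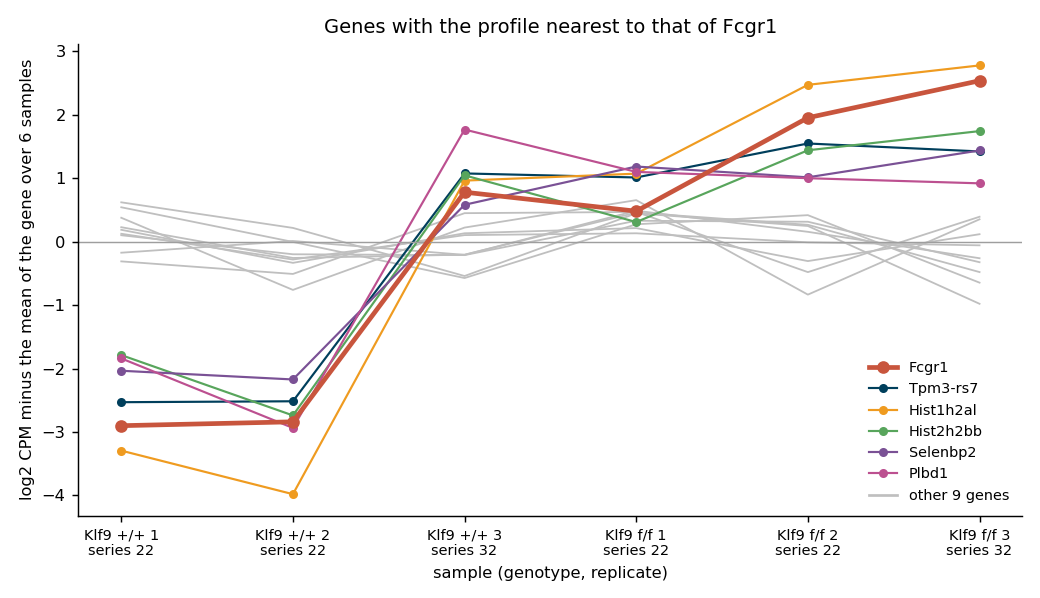
Log2 CPM minus the mean of each gene over 6 samples (vertical axis) by sample, with its series, for Fcgr1 (thick red), the 5 genes nearest to it (colours) and the other 9 genes (grey). The 5 follow Fcgr1 from low values in Klf9 +/+ replicates 1 and 2 to higher ones in the other 4 samples, and no grey line does so in all 4. The grey line of Csf1r does so except in Klf9 f/f replicate 2, at -0.48.

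By the same measure, the genes nearest to C1qa were Polr3g (0.0316), Galm (0.0542), Fcgrt (0.0563), Pkn2 (0.0564) and Fgf11 (0.0572).

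Hist2h2bb lies 3907 bases from the 3′ end of Fcgr1, on the opposite strand (mm9 chromosome 3, 96073644 to 96082924). It had 0.142, 0.0522 and 1.27 CPM in Klf9 +/+ and 0.748, 1.69 and 2.09 CPM in Klf9 f/f, so Klf9 +/+ replicate 3 again lay above Klf9 f/f replicate 1. It was the 1 gene called higher among 12 others tested within 250 kb of Fcgr1, whose median was -0.0096, and 0 were called lower, beside 1.82% and 2.5% of all genes. Around Fcgr2b, Fcgr3 and Fcer1g 0 of 22 others were called higher and 2 lower, Pcp4l1 at -1.24 and F11r at -0.95. Around the C1q genes 0 of 3 were called.

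Within 5 Mb of Fcgr1, a window chosen after these values were seen, 114 other genes were tested. In it 6 were called higher (5.26%) and 6 lower (5.26%), beside 1.82% and 2.5% of all genes, and 3 exceeded 2 on the log2 scale in either direction, against 69 of all genes (0.458%). These were Hist2h2bb, Selenbp2 at 2.59 and, in the other direction, Rplp0-ps1 at -4.48. Selenbp2 had only 4, 4 and 22 counts in Klf9 +/+ replicates 1, 2 and 3 and 73, 49 and 30 in Klf9 f/f. Rplp0-ps1, annotated as a pseudogene, had 101, 236 and 4 counts in Klf9 +/+ and 5, 8 and 1 in Klf9 f/f. Whether reads of these genes are shared with related genes was not searched.

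**Figure D5:**
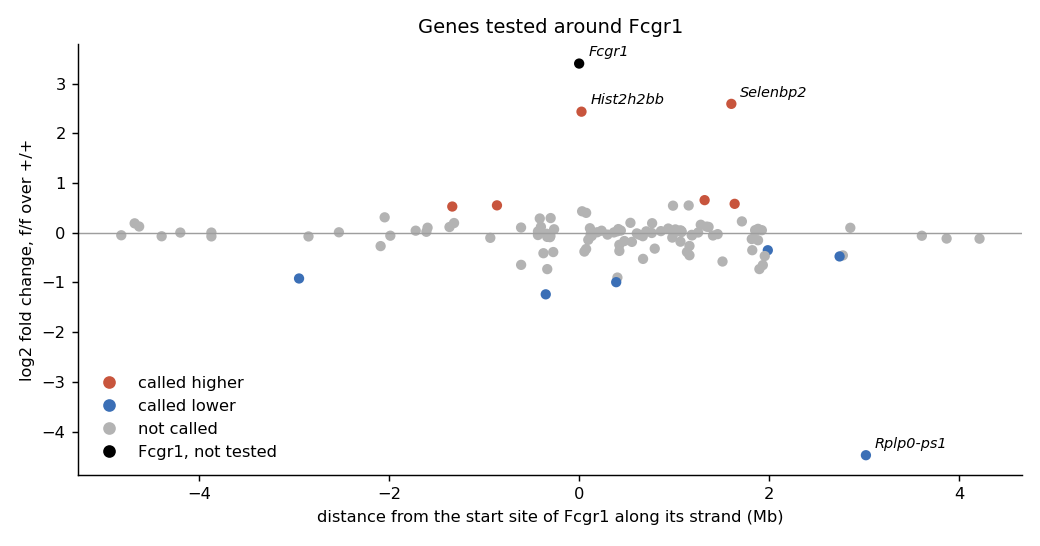
Log2 fold change of Klf9 f/f over Klf9 +/+ (vertical axis) of genes tested, by distance from the Fcgr1 start site along its strand in Mb (horizontal axis), in red where called higher, blue where called lower, grey where not called and black for Fcgr1. Most genes lie near 0, with Hist2h2bb and Selenbp2 above 2 and Rplp0-ps1 at -4.48.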

How the data were processed

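Ribosome-bound RNA of 6 samples was sequenced. The authors mapped reads with STAR to mm9, used HTSeq in its unstranded setting, and deposited whole-number counts per gene without normalization, per the labels and the study's methods. Lines naming no gene, 16.4% to 26.6% of each file, were left out. Of 37620 genes, 37205 were named from GENCODE M1.

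After TMM scaling, genes exceeding 1 CPM in 1 or more samples entered the quasi-likelihood test (glmQLFit, glmQLFTest) in edgeR 4.0.16 under R 4.3.3, with library series as a term and 3 residual degrees of freedom. Calls used 1.2-fold with an unadjusted p under 0.05, after the study's methods, and Benjamini-Hochberg adjustment. Standard errors are the log2 fold change over the square root of F, and log2 CPM used a prior count of 2. Windows of 50 bases were compared over GENCODE M1 protein-coding transcripts. The test was first checked on simulated counts that held no difference between series, so the check does not cover the series term.

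The 10 genes, lists and tests were chosen with earlier results of these data known. Named genes are the 10, list members, genes within 250 kb of the Fc receptor and C1q genes, and the 5 nearest profiles of Fcgr1 and C1qa. Klf9 is named as the targeted gene, and Rplp0-ps1 was chosen after its values were seen. Values of some single list genes are not reported here. Alternatives were other scalings and filters, the likelihood-ratio test, DESeq2 1.42.0, no series term, each series alone and each sample left out. Figures used matplotlib 3.10.9 (Python 3.11.15).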

Additional observations from a re-analysis of the deposited data

How the results depend on the processing

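For the 9 genes other than Fcgr1, 0 calls arose under any alternative. Their direction turned in 10 of 126 tested values, all 10 with a sample left out, and in 7 of 9 within series 32 alone. With 1 sample left out, Fcgr2b ranged from -0.39 to 0.58, C1qa from -0.11 to 0.13, C1qc from -0.037 to 0.36, Tyrobp from -0.15 to 0.18, Csf1r from -0.066 to 0.49 and Cx3cr1 from -0.15 to 0.17 on the log2 scale. Fcgr1 ranged from 2.70 to 4.38 with 1 sample left out and from 1.76 to 4.38 over all alternatives. Leaving out a sample of series 32 leaves a genotype with no sample there.

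Over all genes, calls higher numbered 513 with no filter, 50 without the series term, 163 in series 22 alone and 130 to 493 with 1 sample left out, against 274. Calls lower numbered 926, 163, 202 and 209 to 719 in the same order, against 376. Adjusted calls numbered 334 with no filter, 58 by the likelihood-ratio test, 39 by DESeq2, 13 in series 22 alone and 0 to 15 with 1 sample left out, against 0. The series differed in 84 to 5556 genes and in 0 to 4 of the 10 with 1 sample left out, against 4444 and 3. Interaction calls numbered 27 with no filter and 13 by the likelihood-ratio test, against 0. The cause of these shifts was not tested. No paired analysis was possible because the labels carry no replicate numbers, and the running numbers used here pair no samples. The series term is the grouping that the labels give.

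Depth limits Fcgr2b, with 27 to 105 counts per sample, and Fcgr1 in Klf9 +/+ replicates 1 and 2, with 23 and 28. Series 32 holds 1 sample per genotype, so no spread can be had within it.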
